A study of Homo sapiens with 7 samples.

Results

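The genes described here encode the proteasome: every protein-coding gene of the GRCh38.p14 annotation whose symbol starts with PSMA, PSMB, PSMC, PSMD, PSME, PSMF or PSMG followed by a digit. The rule found 50 of 20037 protein-coding genes, and it used no measured value. A peak was assigned to a gene when its centre lay inside the annotated gene span or within 5 kb of it. Of the 50, PSMC3IP (a factor of meiotic recombination) and PSME3IP1 (a protein that binds the activator PSME3) match by symbol only and are neither subunits nor assembly factors.

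The proteasome is the protease that degrades ubiquitin-tagged proteins. Its 20S core is a barrel of alpha rings, which gate the entry, around beta rings, which hold the proteolytic sites, and its 19S cap has a base with a ring of ATPases that unfold the substrate and a lid that removes ubiquitin. Dedicated chaperones build both parts, alternative caps encoded by PSME genes bind the core, and cells that make too little active proteasome raise the transcription of subunit genes through the factor NFE2L1, which binds antioxidant response elements in their promoters. MYC is a transcription factor that drives growth and binds the E-box CACGTG with its partner MAX, and ATF4 is the transcription factor of the integrated stress response.

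Both factors were mapped by ChIP-seq, in which DNA bound by a protein is pulled down with an antibody and sequenced. The cells were DLD-1, a long-established line of human colon adenocarcinoma, given MycER (a MYC protein that 4-hydroxytamoxifen switches on) by retrovirus. The groups were ATF4 in control cells (2 libraries; vehicle is the alternative to the inducer in the labels' protocol), ATF4 after 8 hr of MYC activation (2 libraries) and MYC after 8 hr of activation (2 libraries), with the inducer at 500 nM, plus 1 IgG sample, labelled as activated, whose own peaks were not analysed here. All groups carry MycER and no group had the inducer without it. MYC was profiled in activated cells only, so the MYC values describe that condition alone. The lists do not separate MycER from the cells' own MYC. The labels do not say whether replicates were separate cultures, so the spread that the tests over libraries use may be technical. Replicate 1 libraries held about 21.04 to 24.95 M tags (M for mega) and replicate 2 libraries 49.77 to 50.3 M, as read from the steps between the deposited values. Depth and replicate number therefore cannot be told apart. Peak lists hold no expression values, so the identity of the line was not checked against marker genes.

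MYC peaks were listed at most proteasome genes in the deeper library and at fewer in the shallower one. In MYC replicate 1, 20 of 50 genes (40%, exact Clopper-Pearson 95% interval 26.4 to 54.8%) had a peak, where 25.9% of all protein-coding genes did. In MYC replicate 2 the number was 40 of 50 (80%, interval 66.3 to 90%), against 54.5% of all genes. Both libraries had a peak at 19 genes (38%, interval 24.7 to 52.8%), and 24.7% of all genes met the same rule. With the gene span alone and no flanks the number was 7 (14%, interval 5.82 to 26.7%), against 16.1% of all genes. At least 1 library had a peak at 41 genes (82%, beside 55.8% of all genes): PSME4 was listed in replicate 1 only and 21 genes in replicate 2 only. The other 9 had none. The median span of the 50 genes was 13551.5 bp, shorter than the 24115 bp of all protein-coding genes. Whether span length bears on the shares was not tested. The intervals cover counting error only, and the comparison set of all genes was not matched on open chromatin or on expression, neither of which was measured here.

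Many of these peaks lay close to a start of transcription. Start sites were given for 44 of the 50 genes by the RefSeq promoter table. The genes with no entry are PSMA7, PSMB1, PSMB6, PSMB7, PSMD4 and PSMG3. Within 1 kb of a start site, 13 of 44 genes had a MYC peak in both libraries (29.5%, interval 16.8 to 45.2%), where 11.9% of 15843 genes did. In replicate 2 alone the number was 28 of 44 (63.6%, interval 47.8 to 77.6%), against 34.3% of all genes. The replicate 1 peaks added no gene to these, so 28 of 44 had a peak in either library, beside 34.9% of all genes. The peaks within 1 kb had a median distance from the start site of 281 bp in replicate 1 (13 peaks, 8 of them upstream) and 236 bp in replicate 2 (33 peaks, 16 upstream). For all genes the medians were 316 and 297 bp, with 52% and 50.3% upstream, so the peaks of proteasome genes were placed around the start much as those of other genes.

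**Figure D1:**
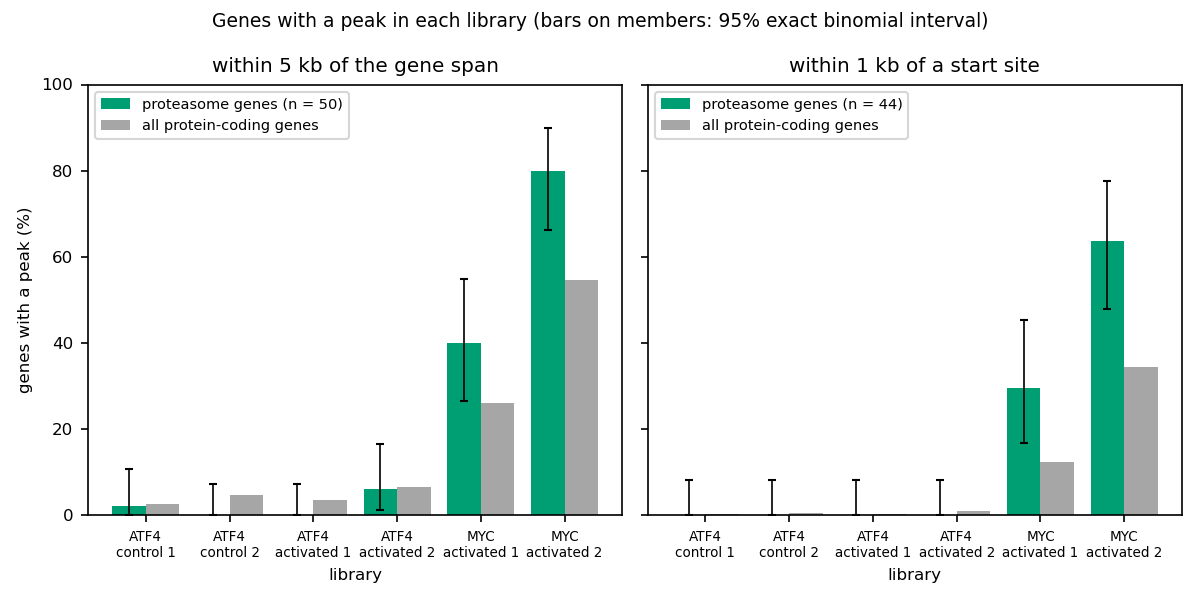
Share of genes (%, vertical axis) with a peak in each of the 6 libraries (horizontal axis), for proteasome genes (green) and all protein-coding genes (grey), within 5 kb of the gene span on the left and within 1 kb of a start site on the right; error bars are exact binomial 95% intervals. In MYC replicate 2 the green bars stand at 80% and 63.6% and the grey bars at 54.5% and 34.3%, while no ATF4 library shows a green bar at the start sites.

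The promoter of PSME3, which held the strongest MYC peak of the group, is shown with other promoters that hold the E-box read by MYC and MAX. The E-box CACGTG, searched on both strands (it is its own reverse complement) in windows from 250 bases before to 50 after the start, occurred at 4 of 44 proteasome genes: PSME3, PSMD9, PSMB3 and PSME3IP1. That is 9.09%, near the 10.9% of all genes. Of the 13 proteasome genes with a start-site peak in both libraries, PSME3 and PSMD9 held it (15.4%), against 18.8% of all genes with such a peak. The upstream stretches of 3 of them follow, ending 1 base before the start site, with that of PSMB2, a gene with MYC peaks in both libraries and no E-box, for contrast. Sequences are from RefSeq (GRCh38.p14) at chr17:42833147-42833396 (plus strand), chr12:121888612-121888789 (plus strand, cut short at the start site of HPD), chr17:38752491-38752740 (plus strand) and chr1:35641527-35641776 (minus strand), read 5′ to 3′. Capitals mark CACGTG and the antioxidant response element core TGACNNNGC, searched on both strands.
PSME3: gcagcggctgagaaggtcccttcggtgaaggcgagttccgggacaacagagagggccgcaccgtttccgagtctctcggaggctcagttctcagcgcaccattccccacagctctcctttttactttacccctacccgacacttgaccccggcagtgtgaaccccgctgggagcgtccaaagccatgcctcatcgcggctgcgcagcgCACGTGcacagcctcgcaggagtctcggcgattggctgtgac
PSMD9: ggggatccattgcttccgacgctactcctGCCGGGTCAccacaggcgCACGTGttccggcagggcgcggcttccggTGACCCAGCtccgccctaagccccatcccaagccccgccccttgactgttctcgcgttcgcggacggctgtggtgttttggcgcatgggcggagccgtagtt
PSMB3: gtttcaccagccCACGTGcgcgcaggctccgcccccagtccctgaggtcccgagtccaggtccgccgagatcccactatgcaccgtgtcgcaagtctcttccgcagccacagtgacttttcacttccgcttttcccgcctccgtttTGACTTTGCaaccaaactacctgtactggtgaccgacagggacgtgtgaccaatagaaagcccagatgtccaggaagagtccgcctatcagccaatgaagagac
PSMB2: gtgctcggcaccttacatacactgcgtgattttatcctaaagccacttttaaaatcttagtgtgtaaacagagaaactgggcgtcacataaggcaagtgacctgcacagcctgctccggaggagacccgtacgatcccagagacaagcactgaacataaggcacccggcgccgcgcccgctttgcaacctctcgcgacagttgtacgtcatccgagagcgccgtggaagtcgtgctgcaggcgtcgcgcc

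In PSME3 the E-box begins 42 bases before the start site, and its middle lay 106 and 104 bp from the centres of the MYC peaks in replicates 1 and 2, outside both peaks. In PSMB3 it begins 238 bases upstream and lay inside the replicate 2 peak, 40 bp from its centre. In PSMD9 it begins 131 bases upstream, 46 bp from the centre of the replicate 2 peak and inside it, and 152 bp from that of the replicate 1 peak. The response element core was more frequent: 15 of 44 proteasome genes held it (34.1%), against 17.9% of all genes. PSMD9 holds it on both sides of the E-box, at 149 and 102 bases upstream, and PSMB3 at 104 bases upstream. The motifs share no bases in these stretches. Neither NFE2L1 nor NFE2L2 binding was measured, and a match to these letters is a description and not a bound site.

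In the account by role, a level is the authors' normalized tag count of the strongest MYC peak at a gene, in tags per 10 M tags of the library. Every peak of a list has the same width (148 bp in MYC replicate 1 and 176 bp in replicate 2), so levels can be compared between genes. Over the 19 genes with a peak in both libraries the median of the mean level was 7.315 tags, with a range of 4.81 to 21.6. The 4950 protein-coding genes that met the same rule had a median of 7.88 tags. So the level at proteasome genes was near that of the typical MYC-bound gene, although a larger share of them had a peak. In 16 of the 19 genes the level was higher in replicate 2, as in 87.8% of all such genes, with a median ratio of 1.45 in both sets.

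**Figure D2:**
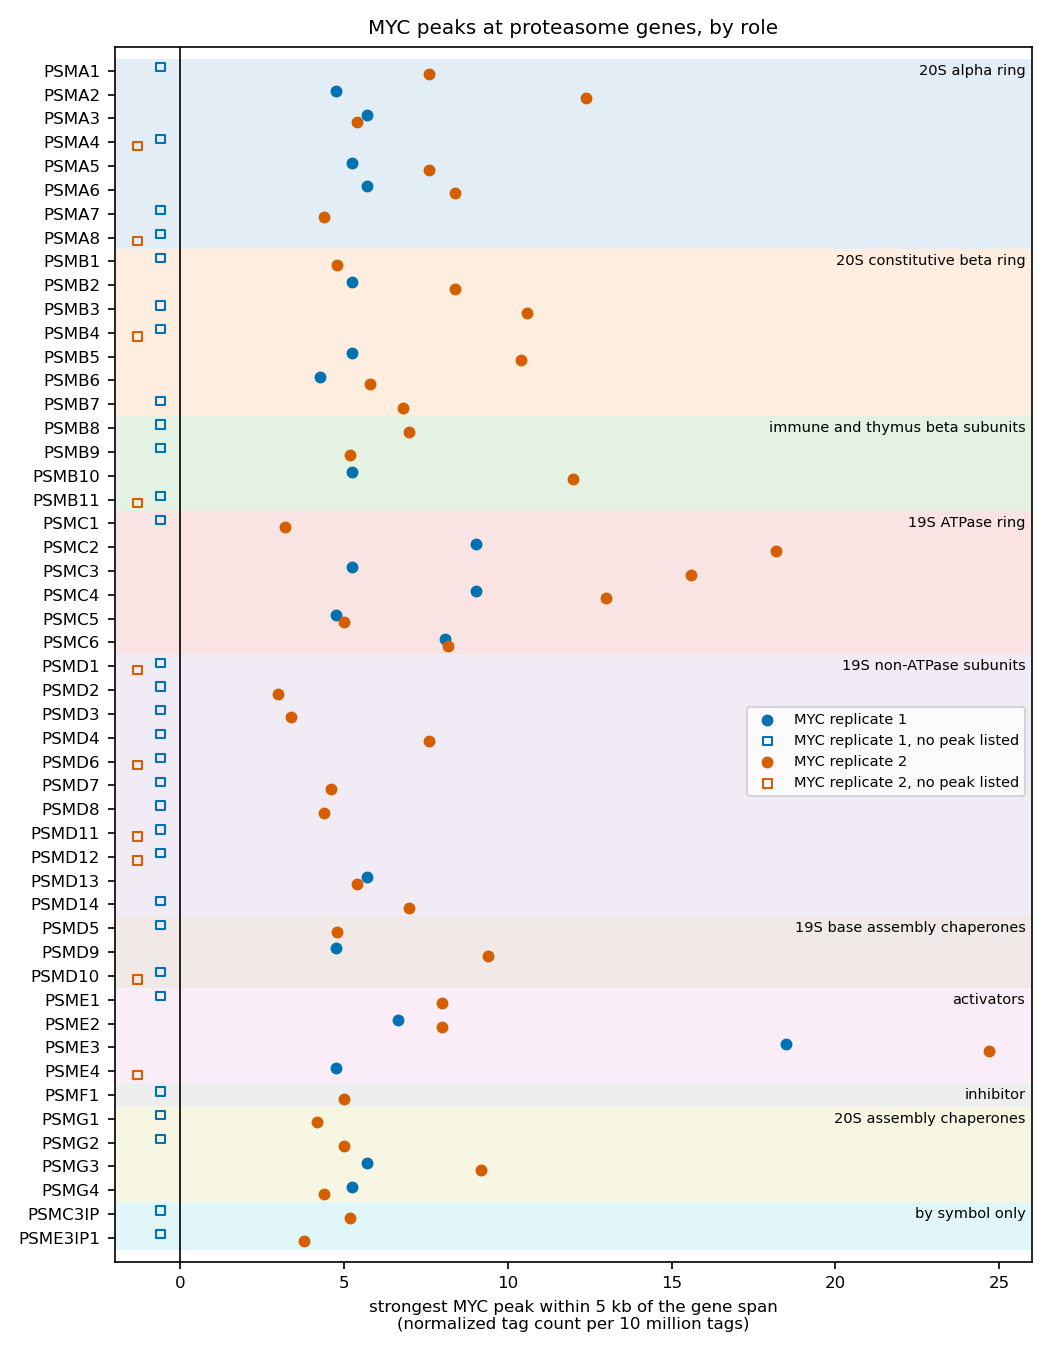
Strongest MYC peak within 5 kb of each of the 50 genes (horizontal axis, normalized tag count per 10 M tags) in replicate 1 (blue) and replicate 2 (orange), grouped by role; open squares left of 0 mark genes with no listed peak in that library. PSME3 stands apart at 18.5 and 24.7 tags. Most of the 50 genes have an open blue square, as do most of the 19S non-ATPase group.

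The highest level was at 1 of the 4 activator genes. PSME3, which encodes the nuclear activator PA28 gamma, had 18.5 and 24.7 tags in MYC replicates 1 and 2 (mean 21.6 ± 4.38, SD, n = 2). The peak, on chromosome 17 (42833178 to 42833326 in replicate 1 and 42833166 to 42833342 in replicate 2, hg38), was centred 145 and 143 bp upstream of its start. It was the highest of the proteasome genes in both libraries, with PSMC2 next at 9.03 tags in replicate 1 (level with PSMC4) and 18.2 in replicate 2, and 110 of the 4950 genes had a higher mean. PSME2, which encodes the beta subunit of the interferon-inducible activator PA28, had 6.65 tags in replicate 1, 52 bp from its start and 317 bp from that of RNF31, a ubiquitin ligase. In replicate 2 it had 6.19 tags at 43 bp and a second peak of 7.98 tags 5362 bp away. That second peak is also the one assigned to PSME1, the alpha subunit, whose own start lay 5054 bp from it and which had no replicate 1 peak. It lay 343 bp from the start site of EMC9. PSME4, which encodes the activator PA200, was listed in replicate 1 only, with 4.75 tags (10 reads) inside the gene and 101933 bp from its start.

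Of the 6 ATPase genes of the 19S base, 5 had a MYC peak in both libraries (24.7% of all genes did). The strongest peaks of 4 of these 5 lay nearer to another gene's start than to their own. PSMC2 had 9.03 and 18.2 tags at a peak 26 and 58 bp from the start of DNAJC2, a ribosome-associated chaperone, and 2850 and 2818 bp from its own. PSMC3 had 5.23 and 15.6 tags beyond its far end and within 1 kb of an end of SLC39A13, a zinc transporter, 10193 and 10184 bp from its own start, and near its start only a replicate 2 peak of 3.59 tags. PSMC6 had 8.08 and 8.18 tags at a peak 730 and 712 bp from the start of STYX, a pseudophosphatase, and near its own start only 2 replicate 2 peaks of 3.79 tags each. PSMC4 and PSMC5 had a peak within 1 kb of their own start in both libraries. PSMC4 had 9.03 and 13 tags 347 and 435 bp upstream of its start, at peaks 153 and 241 bp from that of LOC124904720. PSMC5 had 4.75 and 4.99 tags 387 and 384 bp upstream, at peaks 619 and 616 bp from the start of FTSJ3, an rRNA methyltransferase. PSMC1 had a single replicate 2 peak of 3.19 tags, 30 bp from its start, below the lowest value listed in replicate 1 (3.8 tags).

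Among the 8 alpha ring genes, PSMA2, PSMA3, PSMA5 and PSMA6 had a MYC peak at a start site in both libraries (11.9% of all genes with a start site did). PSMA2 had 4.75 and 12.4 tags 164 and 223 bp upstream of its start, at peaks 38 and 21 bp from the start of MRPL32, a mitochondrial ribosomal protein. PSMA6 had 5.7 and 8.38 tags within 25 bp of a start site, with low folds over the background library of 2.74 and 3.3. PSMA5 had 5.23 and 7.58 tags, and PSMA3 had 5.7 and 5.39 tags. All 4 lay below the median of genes with a peak in both libraries in replicate 1 (6.18 tags), and in replicate 2 (9.58 tags) PSMA2 lay above it and the other 3 below. PSMA1 (7.58 tags, 186 bp from its start) and PSMA7 (4.39 tags, 837 bp from the start of SS18L1) had peaks in replicate 2 only. PSMA4 and PSMA8, the latter a testis form, had none.

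Of the 7 constitutive beta ring genes, PSMB2, PSMB5 and PSMB6 had MYC peaks in both libraries (24.7% of all genes did). PSMB5, which carries the chymotrypsin-like activity, had 5.23 and 10.4 tags 96 and 80 bp from a start site. PSMB2 had 5.23 tags 168 bp upstream in replicate 1 and 8.38 tags 66 bp downstream in replicate 2, and these peaks did not overlap. PSMB6, which carries the caspase-like activity, had 4.28 and 5.79 tags 27 and 88 bp from the nearer end of its span. PSMB3 (10.6 tags, 275 bp upstream of its start and within 1 kb of an end of LOC100287808), PSMB7 (6.79 tags) and PSMB1 (4.79 tags) were listed in replicate 2 only, and PSMB4 had no peak. One more peak assigned to PSMB1 (4.59 tags) lay 47 bp from the start of TBP, the TATA-binding protein.

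Of the 4 genes for beta subunits of immune cells and thymus, 1 had a MYC peak in both libraries (24.7% of all genes did). A further 2 had one in replicate 2 only, and 1 had none. None of these peaks lay within 1 kb of the gene's own start site, where 34.9% of all genes with a start site had one in either library. PSMB10, a subunit of the immunoproteasome, had 5.23 and 12 tags inside the gene, 1310 and 1181 bp from its start. PSMB8, another such subunit, had 6.99 tags in replicate 2 only, 524 bp from the start of TAP2, a peptide transporter, and 5832 bp from its own nearest start. PSMB9, the remaining one, had 5.19 tags in replicate 2 only, 7249 bp from its start. PSMB11, the thymus subunit, had none, the nearest being the peak of its neighbour PSMB5, 7408 and 7392 bp from its span and so just outside the 5 kb window. Just inside the window lay the peak of 4.99 tags 4657 bp from PSMG2.

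Of the 11 genes for non-ATPase subunits of the 19S cap, 1 had a MYC peak in both libraries (24.7% of all genes did). A further 6 had one in replicate 2 only and 4 in neither, where 44.2% of all genes had none. In replicate 2, with or without a peak in replicate 1, 54.5% of all genes had one. PSMD13, a lid subunit, had 5.7 tags 810 bp from its start in replicate 1 and 5.39 tags 358 bp from it in replicate 2, at peaks that did not overlap and that also lay 855 and 403 bp from the start of SIRT3, a mitochondrial deacetylase. Replicate 2 alone listed PSMD4, a ubiquitin receptor (7.58 tags), PSMD14, the deubiquitinase of the lid (6.99 tags), PSMD2, a subunit of the base (2.99 tags), and the lid subunits PSMD7 (4.59 tags at a fold over background of 1.81), PSMD8 (4.39 tags) and PSMD3 (3.39 tags). PSMD1, of the base, and PSMD6, PSMD11 and PSMD12, of the lid, had no MYC peak. Whether the roles differ in their share of genes with a peak was not tested.

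Among the genes that build and restrain the proteasome, PSMD9, a chaperone of the ATPase ring, had 4.75 and 9.38 tags 281 and 174 bp upstream of its start, at peaks 102 and 5 bp from the start of HPD, an enzyme of tyrosine breakdown. Of the other chaperones of that ring, PSMD5 had 4.79 tags in replicate 2 only and PSMD10 had none. The chaperones of the 20S core PSMG3 (5.7 and 9.18 tags, 825 and 864 bp from the start of its antisense neighbour PSMG3-AS1) and PSMG4 (5.23 and 4.39 tags) had peaks in both libraries. Their partners PSMG1 (4.19 tags) and PSMG2 (4.99 tags) had peaks in replicate 2 only. So did the inhibitor gene PSMF1, with a pair of peaks of 4.99 tags each. These lay 411 and 232 bp from its own nearest start, and 565 and 78 bp from the start of LOC105372493. PSMC3IP had 5.19 and PSME3IP1 (within 1 kb of an end of RSPRY1) had 3.79 tags, also in replicate 2 only.

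**Figure D3:**
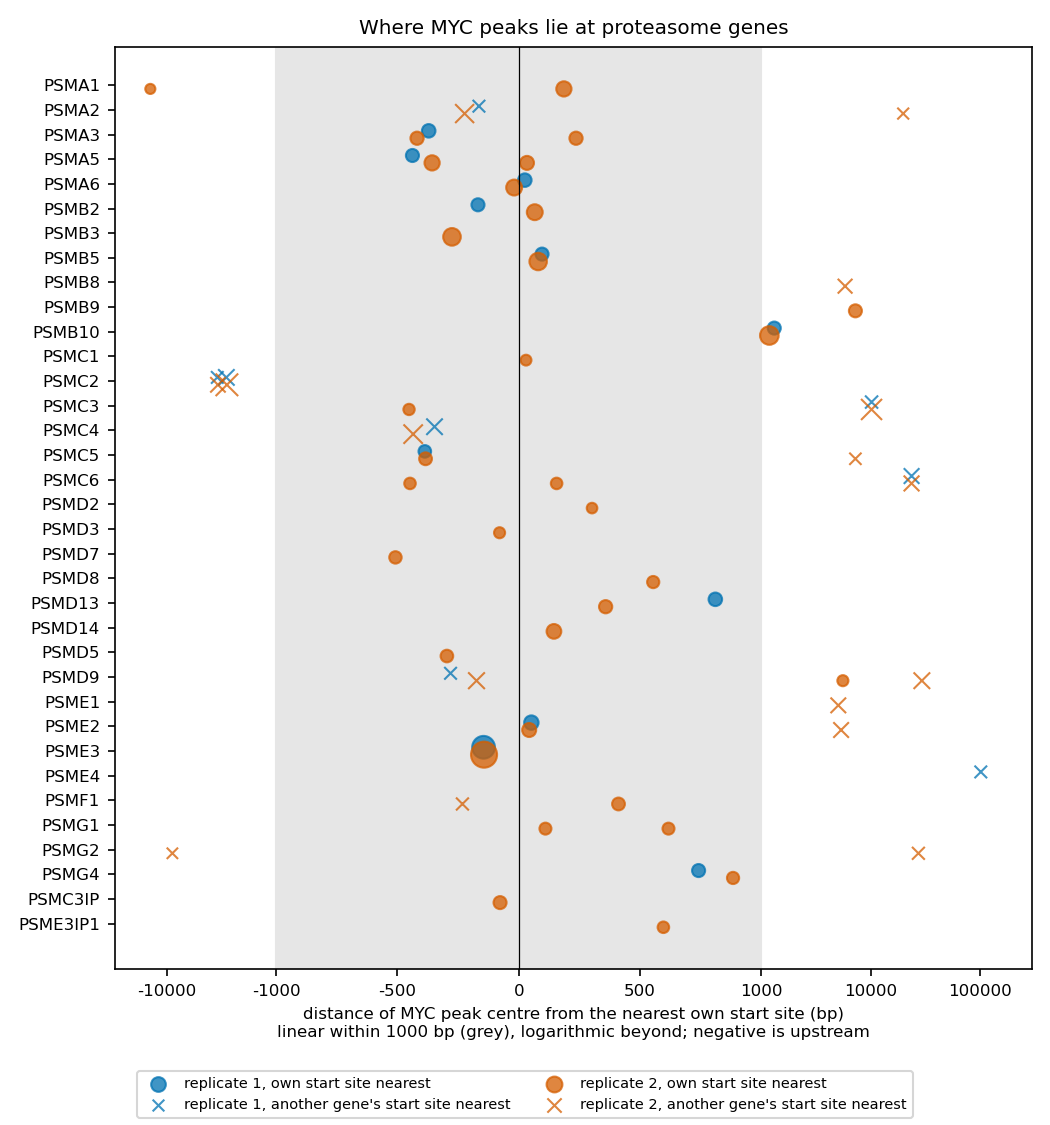
Distance of each MYC peak centre from the nearest own start site of the gene (horizontal axis, bp, linear within 1 kb and logarithmic beyond, negative upstream), one row for each gene with a start site and a peak; circles mark peaks with the gene's own start nearest, crosses those nearer to another gene's start, and larger symbols have more tags. PSMC2, PSMC3 and PSMC6 have their strongest peaks as crosses outside the grey band, while the peaks of PSME3 lie 145 and 143 bp upstream.

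Many of these peaks could not be assigned to the proteasome gene alone. Of the 13 genes with a start-site peak in both libraries, 6 had it within 1 kb of another gene's start as well (PSMA2 with MRPL32, PSMC4 with LOC124904720, PSMC5 with FTSJ3, PSMD9 with HPD, PSMD13 with SIRT3 and PSME2 with RNF31). That is 46.2%, where 40.2% of the 1879 genes that met the same rule had such a neighbour. Of the 19 genes with a peak in both libraries, 17 have a start site given, which is 38.6% of the 44 with one, against 25.1% of all genes with one. When only peaks with no other gene's start nearer were counted, an alternative chosen after seeing the data, 11 of these 17 were left, or 25% of the 44 (interval 13.2 to 40.3%), against 16.8% of all genes. Overlapping peaks of both libraries were present at 17 of the 19, which is 34% of the 50 genes against 21.8% of all genes.

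The genes listed in replicate 2 only had weaker peaks. Their levels in that library ran from 2.99 to 10.6 tags with a median of 4.99, against 4.39 to 24.7 and a median of 8.38 for the 19 genes with a peak in both. Those 19 were selected by also being called in the shallower library, so a difference in this direction can follow from the selection itself. The same comparison over all genes is not given here, so it is not read as a trait of proteasome genes. For 4 of the 21 genes the replicate 2 level was under 3.8 tags, the lowest value in the replicate 1 list. The remaining 17 had a replicate 2 level at which replicate 1 did list peaks elsewhere. However, levels ran higher in replicate 2, by a median ratio of 1.45 over all genes with a peak in both libraries. Equal values in the libraries are therefore not equivalent, and the floor was not rescaled by that ratio.

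**Figure D4:**
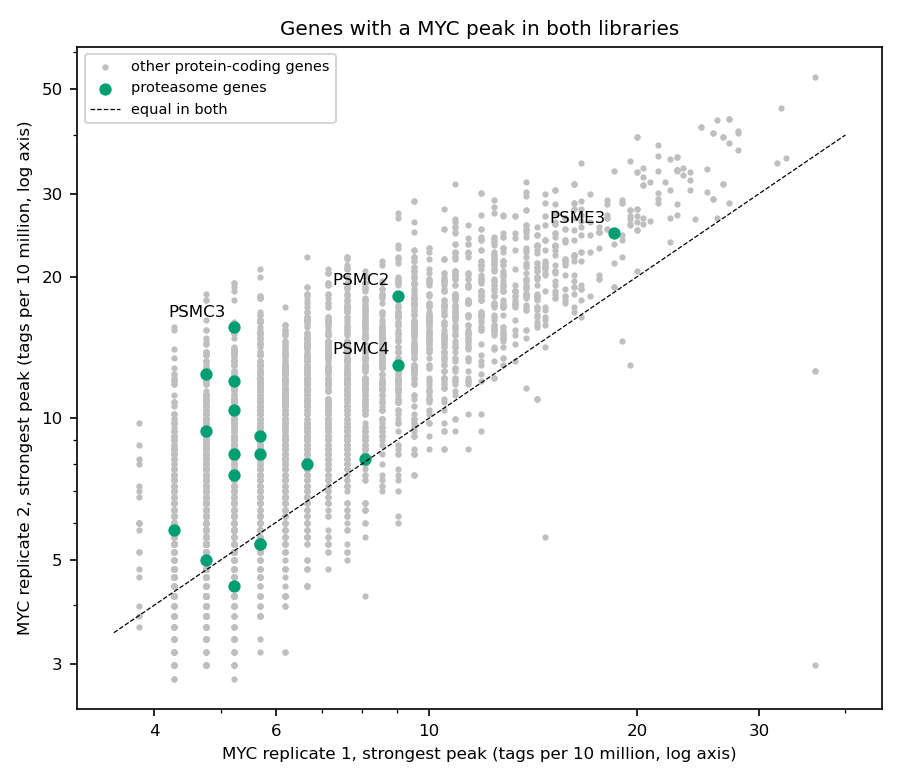
Strongest MYC peak in replicate 1 (horizontal axis) and replicate 2 (vertical axis), in tags per 10 M on log axes, for the 4950 protein-coding genes with a peak in both libraries; the 19 proteasome genes are green and the dashed line marks equal values. The 4 genes with a mean over 10 tags are named, and PSME3 lies in the upper right with 18.5 and 24.7 tags.

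No MYC peak was listed within 5 kb of 9 genes (18%), where 44.2% of all protein-coding genes had none. Besides the tissue-restricted PSMA8 and PSMB11 these were the core genes PSMA4 and PSMB4, the cap genes PSMD1, PSMD6, PSMD11 and PSMD12, and the chaperone gene PSMD10. Their nearest peak in replicate 2 lay between 6899 bp from the span (PSMD6) and 342212 bp (PSMD10). Absence from a list means that no peak was called at this depth, and it does not show that MYC is absent.

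Few ATF4 peaks were listed at proteasome genes, and none within 1 kb of a start site. In the order control replicates 1 and 2 and activated replicates 1 and 2, 1, 0, 0 and 3 of 50 genes had an ATF4 peak, beside 2.5%, 4.59%, 3.59% and 6.61% of all genes. At start sites the count was 0 of 44 in each library (interval up to 8.04%), beside 0.265%, 0.429%, 0.322% and 0.839% of all genes in the same order. Over the 4 libraries together, 4 genes had a peak (8%, beside 13.3% of all genes). PSMD1, the scaffold of the 19S base, had 4.91 tags in control replicate 1, inside the gene and 76692 bp from its start. In activated replicate 2, PSMF1 had 4.22 tags 5197 bp from its nearest start, and PSMA4 and PSMB1 had 3.62 tags each, inside the gene. PSMB1 and PSMF1 also had MYC peaks, and none of the 4 ATF4 peaks overlapped a MYC peak in either library. The nearest MYC peak of replicate 2 lay 4786 bp away, at PSMF1. Each ATF4 peak was seen in 1 library, so no proteasome gene had one in both activated libraries (0 of 50, interval 0 to 7.11%, against 1.41% of all genes) or in both control libraries (0.624% of all genes).

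Whether MYC activation changed the number of proteasome genes with an ATF4 peak was compared over libraries. The means were 1.5 ± 2.12 genes after activation and 0.5 ± 0.707 in control (SD, n = 2), with overlapping groups and a two-sided exact permutation p of 1, where 2 against 2 libraries cannot give a p below 0.333. None of the 105 regions with an ATF4 peak in all 4 libraries lay at a proteasome gene, so there was no common site at which to compare ATF4 signal. In activated cells MYC peaks were present at 30 ± 14.1 and ATF4 peaks at 1.5 ± 2.12 proteasome genes (SD, n = 2), without overlap between the groups and with an exact permutation p of 0.333, the smallest this design allows. MYC lists were longer for all genes too (25.9% and 54.5% of genes, against 3.59% and 6.61% for ATF4). The ATF4 motif core TGATGNAAN, searched on both strands, occurred in the start-site window of 1 of 44 genes (PSMF1) and of 3.6% of all genes. The PSMF1 match began 11 bases after a start site at the edge of the gene span. The ATF4 peak of that gene was centred 10536 bp from the same edge, so the match lay outside it.

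Outside the rule, 30 further genes of the ubiquitin-proteasome system were examined by the same windows: 10 proteasome partners, 4 genes of proteasome and antioxidant transcription (NFE2L1, its processing enzymes and NFE2L2), 4 ubiquitin genes, 2 ubiquitin-activating enzymes, and 10 shuttles and VCP segregase genes. MYC peaks were present in both libraries at 10 of the 30 (33.3%, beside 24.7% of all genes) and in at least 1 library at 24 (80%, beside 55.8% of all genes). The highest levels were at NFE2L2, the antioxidant response regulator (7.61 and 15.4 tags in replicates 1 and 2), UBQLN4, a shuttle (9.51 and 12.4 tags), ADRM1, a ubiquitin receptor of the 19S cap (7.13 and 14.6 tags), PAAF1, a chaperone of the ATPase ring (4.75 and 15.4 tags), and RPS27A, which encodes ubiquitin fused to a ribosomal protein (7.61 and 12.2 tags). NFE2L2, PAAF1 and RPS27A had a peak within 1 kb of their own start in both libraries. The ADRM1 peaks lay 2371 and 2300 bp from its start in replicates 1 and 2. The UBQLN4 peaks lay outside its span, and no start site was given for it. NFE2L1 itself had 4.99 tags and POMP, the maturation factor of the 20S core, 3.79 tags, both in replicate 2 only and both chosen for naming after their values were seen. At least 1 ATF4 library had a peak at 4 of the 30 genes, beside 13.3% of all genes. Among these peaks, UBQLN1, a shuttle, had one in both activated libraries (4.81 and 3.62 tags), at different places in the gene. Both activated libraries had a peak at 1.41% of all genes. A second UBQLN1 peak of activated replicate 2 (3.42 tags) lay 516 bp from its start. It overlapped a MYC peak of replicate 2 (9.38 tags). RPS27A (6.7 tags) and UFD1, a VCP cofactor (4.91 tags), had one in control replicate 1.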

How the data were processed

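One peak list was deposited for each of the 6 libraries, ATF4 and MYC alike, and the lists differ in peaks between replicates, so replicates were not pooled. The submitters' processing notes name Bowtie 0.12.9, HOMER and hg38 but no settings, and the column names are HOMER's per the file headers. For each peak the authors give a normalized tag count, used here as the signal (tags per 10 M tags), and a fold over a background library, a deposited ratio used only to describe or filter peaks. The headers do not name the background library. Depth was read from the constant steps between low values.

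Gene spans are from GRCh38.p14, and start sites and promoter sequences from the RefSeq promoter table of that build. Peaks were assigned to all protein-coding genes by their centre (Python 3.11.15, pandas 2.3.3). The assignment was tested on simulated data. Numbers of genes were compared by exact permutation over libraries, and shares carry exact binomial intervals (scipy 1.17.1). The planned limma fit of ATF4 signal was not made, because no common region lay at a proteasome gene. The genes and lists were chosen with earlier results of these data known. By the naming rule, up to 3 genes of each role with the highest MYC level were described, with every gene that had an ATF4 peak, no MYC peak or a MYC peak in 1 library. Of the other ubiquitin genes, the 5 highest and those with an ATF4 peak were named, except 1 that is not reported here. PSMA3, PSMC5 and PSMC6 were added after their values were seen, as was the search for TGACNNNGC. Alternatives covered the window, peak thresholds, overlap and single libraries.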

Additional observations from a re-analysis of the deposited data

How the results depend on the processing

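Depth moved with the count of proteasome genes with a MYC peak: leaving out each MYC library in turn gave 20 to 40 genes instead of 19, and 13 to 28 instead of 13 within 1 kb of a start site, since the library left defined the call alone. The gene span without flanks gave 7 genes (14%, against 16.1% of all genes). It leaves out peaks before the start, near or far, and those beyond the far end. Counting only peaks with no other gene's start nearer gave 11 (chosen after seeing the data). The 1 kb flank, a minimum fold of 4 over background, one tag minimum for both lists, overlap by 1 bp and leaving out PSMC3IP and PSME3IP1 kept the count between 16 and 19. The count of genes with an ATF4 peak in both activated libraries was 0 under each window and threshold and 0 to 3 with 1 library. The difference of 1 gene in ATF4 peaks between activated and control libraries became 0 when a peak had to reach 4-fold over background and -0.5 under one tag minimum for all lists. It ran from -0.5 (without activated replicate 2) to 2.5 (without activated replicate 1) with 1 library left out. With a replicate block the differences were the same by construction, 1 gene for ATF4 (exact permutation p of 1) and 28.5 genes for MYC against ATF4 (p of 0.5, the smallest that 2 pairs allow). Same-numbered libraries share only a number and a depth class in the labels and files. The limma fit of ATF4 signal, with its pseudocount and block alternatives, was not run for lack of a common region at these genes.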
